A study of Mus musculus with 8 samples.

Results

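The genes of cholesterol synthesis and of its control by SREBP2 were described in intestinal epithelial cells of mice that lack Rictor in the epithelium and of their controls. The group holds 27 genes of the 54139 in the deposited tables, taken by name from a list in pathway order that has 19 enzymes, the sterol carrier Stard4 and 7 genes that control the pathway. All 27 passed the filter on low counts. RNA was sequenced in 4 cKO libraries, which carry the Villin-Cre transgene and a floxed Rictor allele, and in 4 WT libraries, which carry Villin-Cre alone, so that Cre is shared by both genotypes. Villin-Cre acts in the intestinal epithelium, and cells of other lineages that come along in a preparation keep Rictor. Rictor defines mTOR complex 2, a kinase complex upstream of Akt. The age of the mice, the intestinal segment and any pooling of animals were not given in the sources used here. Nor is it stated that each library is 1 mouse, so p-values stand for the spread among libraries, which may be technical.

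Cholesterol is built from acetyl-CoA. The mevalonate pathway makes isoprene units, prenyl diphosphate synthases join them, squalene is formed and closed to lanosterol, and a series of enzymes of the endoplasmic reticulum turns lanosterol into cholesterol. SREBP2, the product of Srebf2, is a membrane-bound transcription factor for most of these enzymes. When sterols are scarce, Scap carries SREBP2 to the Golgi, where the proteases encoded by Mbtps1 and Mbtps2 release it, and when sterols are plentiful Insig1 and Insig2 hold Scap back. The small intestine both absorbs cholesterol and synthesises it.

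Total counts ran from 15110451 to 18351748 in cKO libraries and from 15982538 to 18708335 in WT libraries. Levels are CPM, counts scaled to a common library total after TMM normalisation, and FPKM (fragments per gene length and library total) where genes are compared with each other. Rictor had 30.4, 39.6, 20.8 and 40.6 CPM in cKO libraries 1 to 4, against 41.7, 42.4, 57.3 and 51.4 CPM in WT libraries 1 to 4. Its estimate was -0.55 ± 0.20 on the log2 scale (SE; edgeR adjusted p = 0.921, and 0.0190 before adjustment). No cKO library reached the level of a WT library. Transcript was still counted in every cKO library, and the counts per gene include exons outside any deleted part. The source of this remaining transcript was not tested. The 8 epithelial markers summed to 9223 to 12340 CPM in cKO libraries and 9583 to 10460 CPM in WT libraries. Markers of T cells and intraepithelial lymphocytes summed to 249.9 to 772 CPM in cKO and 195 to 637 CPM in WT, those of stroma and vessels to 2.82 to 4.03 CPM in cKO and 1.41 to 2.72 CPM in WT, and none of the listed markers was at 0 in all libraries. Of the 13 lymphocyte markers tested, 12 had higher and 1 a lower point estimate in cKO, and 0 passed the test. Library 3 of cKO stood apart: a trend on transcript length and GC content took 0.287 of the variance of its log2 deviations over genes, against 0.00510 to 0.0409 in the other 7 libraries. Where leaving it out moved an estimate named below by more than 1.5 times or across 0, the value without it is given in the text or the closing section. For Rictor it was -0.39.

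For 17 of the 19 synthesis enzymes the point estimate was higher in cKO than in WT, with a median log2 fold change of 0.20, and none passed the test. Over all 27 genes, 21 had higher and 6 had lower point estimates, a median of 0.17. Of all 14701 genes tested, 50.5% had a higher point estimate, with a median of 0.0022. By the edgeR quasi-likelihood test 0 of the 27 genes passed an adjusted p of 0.05, where 0.0136% of all genes did, and their adjusted p ran from 0.921 to 0.993. By the DESeq2 Wald test, which called 0.279% of all genes, 0 of the 27 passed as well. At an edgeR p under 0.05 before adjustment, 4 of the 27 were higher, against 1.83% of all genes, and 0 were lower, against 2.07%. For 0 of the 27 genes did all 4 cKO libraries lie above all 4 WT libraries, as they did for 1.41% of all genes, and for 0 did they all lie below, as for 1.8%. None of the 27 was past 0.05 before adjustment when cKO library 1, cKO library 3, WT library 1 or WT library 3 was left out, nor without both libraries numbered 3, with the replicate number as a block or with sample quality weights.

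**Figure D1:**
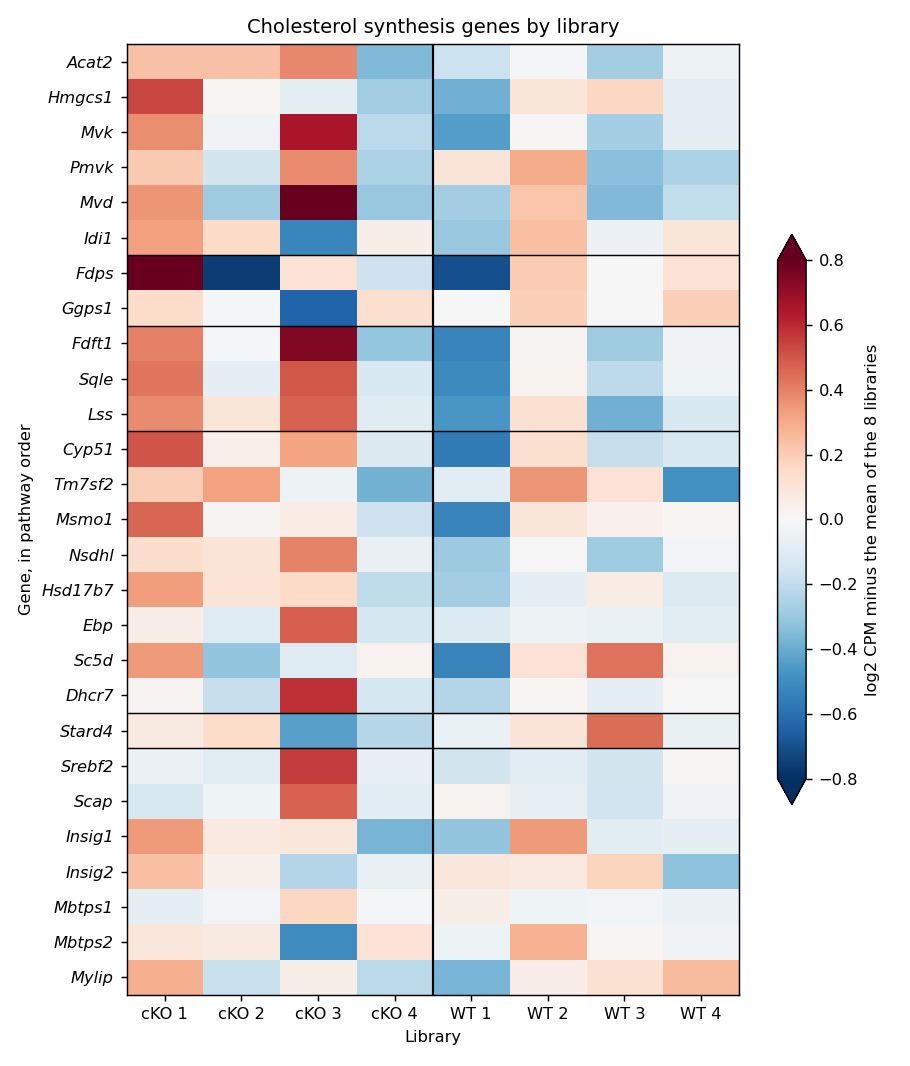
Log2 CPM of each of the 27 genes minus its mean over the 8 libraries, with genes in pathway order down the page, cKO libraries left and WT libraries right of the vertical line, and horizontal lines between the steps of the pathway. The colour scale ends at 0.8 in either direction, and most enzymes are above their mean in cKO libraries 1 and 3 and below it in cKO library 4 and WT library 1.

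Levels along the pathway were uneven. Per length, the highest of the 27 were Stard4, a soluble protein that moves sterol between membranes, at 34.6 ± 6.17 FPKM in cKO and 40.2 ± 7.0 FPKM in WT, Srebf2 at 37.0 ± 8.93 FPKM in cKO and 32.0 ± 1.64 FPKM in WT, and Ebp, the sterol isomerase, at 33.6 ± 7.15 FPKM in cKO and 29.9 ± 0.655 FPKM in WT (SD, n = 4 each). In cKO libraries these genes overlapped, so their order is not separated. In WT libraries they did not overlap, with Stard4 at 35.3 to 50.3 FPKM, Srebf2 at 30.8 to 34.2 FPKM and Ebp at 29.1 to 30.6 FPKM. Of the 19 enzymes, 16 had a mean of at least 5 FPKM over the 8 libraries. Lss and Tm7sf2 were lower, at means of 3.06 and 3.23 FPKM, and Fdps was lowest at 0.331 FPKM. This order depends on the gene length used, which was 10787, 5593 and 4208 bases for Lss, Tm7sf2 and Fdps. Their longest coding transcripts have 4667, 1498 and 1382 bases. By CPM, Lss, at means of 38.2 in cKO and 28.5 in WT, was above Mvk, at 23.3 and 17.4. The Fdps level is uncertain, since 76.8% of the bases of its longest coding transcript match transcripts of 5 other annotated genes at 95% identity or more, and how reads with several matches were counted was not given in the sources used here. Apart from these copies, 26.7% of the exon bases of Fdps are shared with the coding gene Gm43738 on the same strand in GENCODE M21. Fdps was counted 13 to 50 times in cKO libraries and 15 to 27 times in WT libraries, and the exact 95% Poisson interval of the count of 13 is 6.92 to 22.2, which covers counting error only. The other genes apart from Mylip had between 210 and 6498 counts per library.

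**Figure D2:**
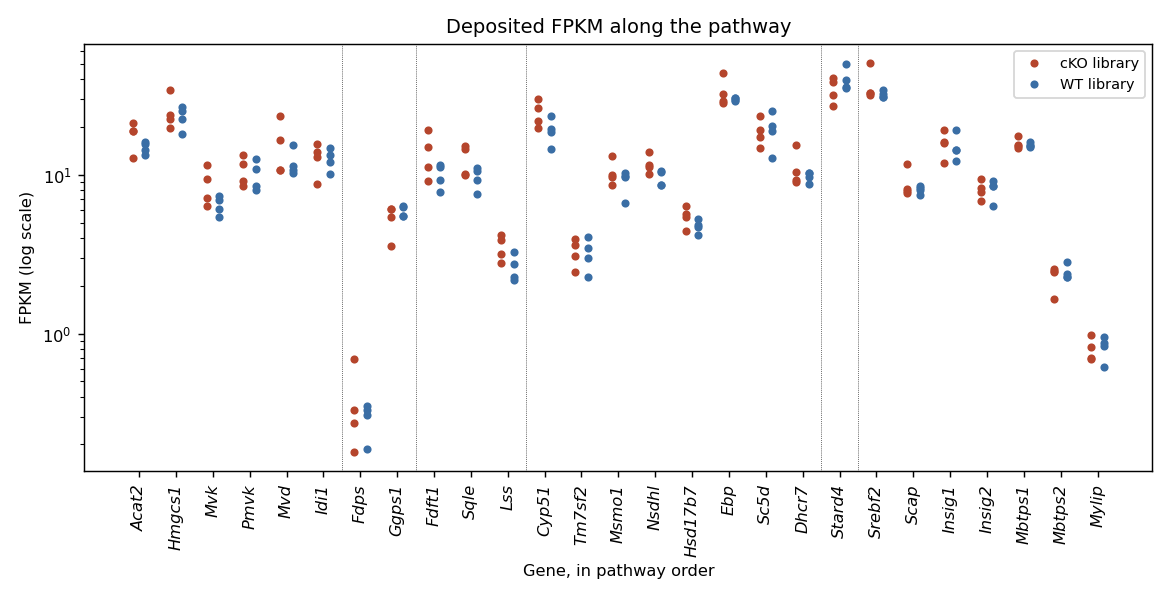
Deposited FPKM, on a log axis, of the 27 genes in pathway order, with each point 1 library, cKO libraries left and WT libraries right within each gene. Stard4, Srebf2 and Ebp are the highest and Fdps and Mylip, at means of 0.331 and 0.808 FPKM, are the lowest.

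At the step from farnesyl diphosphate to lanosterol all 3 enzymes were 1.30-fold to 1.37-fold higher in cKO by point estimate. Their log2 fold changes of 0.38 to 0.45 were 0.25 to 0.33 without cKO library 3 and 0.14 to 0.23 with sample quality weights. Whether this step differs from the others was not tested. Lss (ENSMUSG00000033105, chr10:76531588-76557138 in the deposited annotation, which matches GRCm38), the synthase that folds squalene epoxide into lanosterol, had 42.2, 34.9, 45.2 and 30.4 CPM in cKO libraries 1 to 4, against 23.6, 35.4, 24.96 and 30.0 CPM in WT libraries 1 to 4. The cKO libraries 1 and 3 lay above every WT library, cKO libraries 2 and 4 lay below WT library 2, and the groups overlapped. The mean was 38.2 ± 6.76 CPM in cKO and 28.5 ± 5.35 CPM in WT (SD, n = 4 each), a log2 fold change of 0.42 ± 0.16 (SE), with an edgeR p of 0.0258 before and 0.921 after adjustment and an exact two-sided permutation p of 0.0857, where 0.0286 is the smallest that 4 against 4 can give. Its log2 fold change stayed between 0.23 and 0.55 in all 19 alternatives. Of the exon bases of Lss 3.53% are shared with another annotated gene on the opposite strand.

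Sqle (ENSMUSG00000022351, chr15:59315077-59331192), squalene epoxidase, had 81.5, 57.2, 85.5 and 55.6 CPM in cKO libraries 1 to 4, against 42.5, 61.6, 52.3 and 59.1 CPM in WT libraries 1 to 4. Libraries 1 and 3 of cKO were again above all WT libraries, and cKO libraries 2 and 4 lay inside the WT range. The log2 fold change was 0.38 ± 0.17 (SE), with an edgeR p of 0.0490 before and 0.921 after adjustment. Fdft1, squalene synthase, which commits farnesyl diphosphate to sterols, had 64.0, 48.1, 81.2 and 39.2 CPM in cKO libraries 1 to 4, against 33.5, 49.3, 39.8 and 47.6 CPM in WT libraries 1 to 4. The estimate of 0.45 ± 0.22 (log2, SE; edgeR adjusted p = 0.921, and 0.0611 before adjustment) was the highest of the 27, and it ran from 0.14 to 0.61 over the alternatives, at 0.25 without cKO library 3. Of the exon bases of Fdft1, 18.3% overlap Ctsb on the opposite strand in GENCODE M21, and 33.8% of its longest coding transcript matches 1 other annotated gene at 95% identity or more, so its counts are uncertain if reads were counted without strand or in several places.

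**Figure D3:**
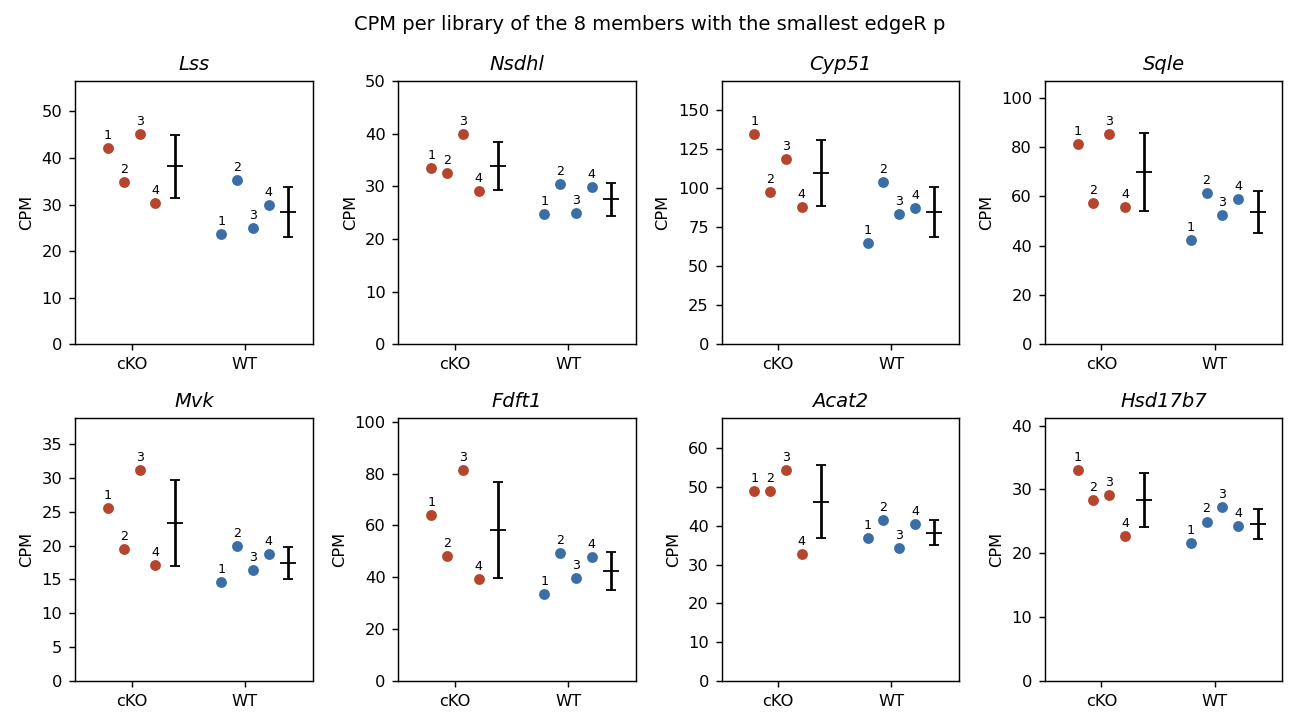
CPM in each library of the 8 genes with the smallest edgeR p, cKO left and WT right, with points numbered by library and black bars for the mean and SD of 4 libraries, on axes that start at 0. In each panel cKO library 1 or 3 is the highest of the 8 libraries, and the groups overlap.

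In the mevalonate pathway all 6 genes were higher in cKO by point estimate, from 0.023 to 0.42, with a median log2 fold change of 0.19, and 0 passed the test. Mvk, mevalonate kinase, had 25.6, 19.4, 31.1 and 17.1 CPM in cKO libraries 1 to 4, against 14.6, 19.95, 16.4 and 18.8 CPM in WT libraries 1 to 4. The estimate for Mvk was 0.42 ± 0.19 (log2, SE; edgeR adjusted p = 0.921, and 0.05004 before adjustment), with cKO libraries 2 and 4 inside the WT range, and it was 0.25 without cKO library 3. Acat2, the cytosolic thiolase that joins acetyl-CoA units, had 48.9, 48.9, 54.3 and 32.6 CPM in cKO libraries 1 to 4, against 37.0, 41.4, 34.3 and 40.4 CPM in WT libraries 1 to 4. Here cKO libraries 1, 2 and 3 exceeded every WT library and cKO library 4 was the lowest of all 8, and the estimate was 0.27 ± 0.15 (log2, SE; edgeR adjusted p = 0.921). Of the longest coding transcript of Acat2, 65.6% matches 2 other annotated genes at 95% identity or more.

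Hmgcs1, the cytosolic HMG-CoA synthase and a classical SREBP target, had 160 CPM in cKO library 1, against 91.0 to 111 CPM in the other cKO libraries and 84.5 to 124 CPM in WT libraries. The mean was 117 ± 29.9 CPM in cKO and 108 ± 17.4 CPM in WT (SD, n = 4 each), and without cKO library 1 the log2 fold change of 0.12 became -0.073. Mvd, the decarboxylase that makes isopentenyl diphosphate, had a higher estimate (0.36 ± 0.25, log2, SE; edgeR adjusted p = 0.921) that rested on cKO library 3, at 43.9 CPM against 19.96 to 31.4 CPM in the other cKO libraries, and was 0.088 without that library. Pmvk, the next kinase after Mvk, and Idi1, the isomerase of isopentenyl diphosphate, had estimates of 0.092 ± 0.19 and 0.023 ± 0.18 (log2, SE), both smaller than their errors, and -0.028 and 0.17 without cKO library 3. Of the prenyl diphosphate synthases, Ggps1, which makes the donor for geranylgeranylation, had an estimate of -0.16 ± 0.17, and Fdps, at its low counts, 0.34 ± 0.42 (log2, SE). Ggps1 was low in cKO library 3 alone, at 16.97 CPM against 26.2 to 29.2 CPM in the other cKO libraries, and its estimate was -0.0088 without that library. Of the longest coding transcripts, 22.6% of that of Idi1 and 21.3% of that of Ggps1 match other annotated genes at 95% identity or more. Genes on the opposite strand share 9.21% of the exon bases of Idi1 (Gm48574), 12.1% of those of Hmgcs1 (Gm48342) and 5.44% of those of Ggps1 (Arid4b).

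Of the 8 enzymes from lanosterol to cholesterol 7 had higher point estimates in cKO, with a median log2 fold change of 0.18, and 0 passed the test. Cyp51 (ENSMUSG00000001467, chr5:4081145-4104746), the lanosterol demethylase, had 135, 97.7, 118 and 87.6 CPM in cKO libraries 1 to 4, against 64.6, 104, 83.5 and 87.1 CPM in WT libraries 1 to 4. It averaged 110 ± 21.1 CPM in cKO and 84.8 ± 16.2 CPM in WT (SD, n = 4 each), an estimate of 0.37 ± 0.17 (log2, SE; edgeR adjusted p = 0.921, and 0.0485 before adjustment). Of its exon bases 3.76% are shared with Akap9 on the opposite strand. Nsdhl (ENSMUSG00000031349, chrX:72918557-72958514), a dehydrogenase that removes methyl carbons from sterols, had 33.4, 32.6, 40.0 and 29.1 CPM in cKO libraries 1 to 4, against 24.8, 30.4, 24.9 and 29.9 CPM in WT libraries 1 to 4. The cKO libraries 1, 2 and 3 were above every WT library and cKO library 4 was not, and the estimate was 0.30 ± 0.13 (log2, SE; edgeR adjusted p = 0.921, and 0.0431 before adjustment). Hsd17b7, the keto reductase that acts with Nsdhl, had 33.0, 28.3, 29.2 and 22.7 CPM in cKO libraries 1 to 4, against 21.6, 24.98, 27.3 and 24.3 CPM in WT libraries 1 to 4, an estimate of 0.20 ± 0.13 (log2, SE; edgeR adjusted p = 0.921).

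Ebp had 76.2, 68.5, 102 and 66.4 CPM in cKO libraries 1 to 4, against 68.0, 71.2, 70.8 and 69.1 CPM in WT libraries 1 to 4. Its estimate of 0.17 ± 0.14 (log2, SE) was 0.013 without cKO library 3. Dhcr7, the reductase of the final step in this order, was likewise highest in cKO library 3, at 90.2 CPM against 53.0 to 61.2 CPM in the other cKO libraries and 51.2 to 60.7 CPM in WT libraries, and its estimate of 0.17 ± 0.16 was -0.028 without that library. Msmo1, the methylsterol oxidase, was at 0.19 ± 0.17, at 0.052 without cKO library 1 and at 0.071 without WT library 1. Tm7sf2, a sterol reductase, at 0.042 ± 0.20, and Sc5d, the sterol desaturase, at -0.041 ± 0.20, had estimates smaller than their errors, and 0.070 and -0.0060 without cKO library 3. In GENCODE M21, Tm7sf2 shares 12.1% of its 4403 exon bases with Vps51 on the same strand. The deposited Tm7sf2 is a longer model, of 5593 bases and reaching to 6077197 in place of 6068373. The share in the gene as counted is therefore not known, and its level and estimate are uncertain.

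**Figure D4:**
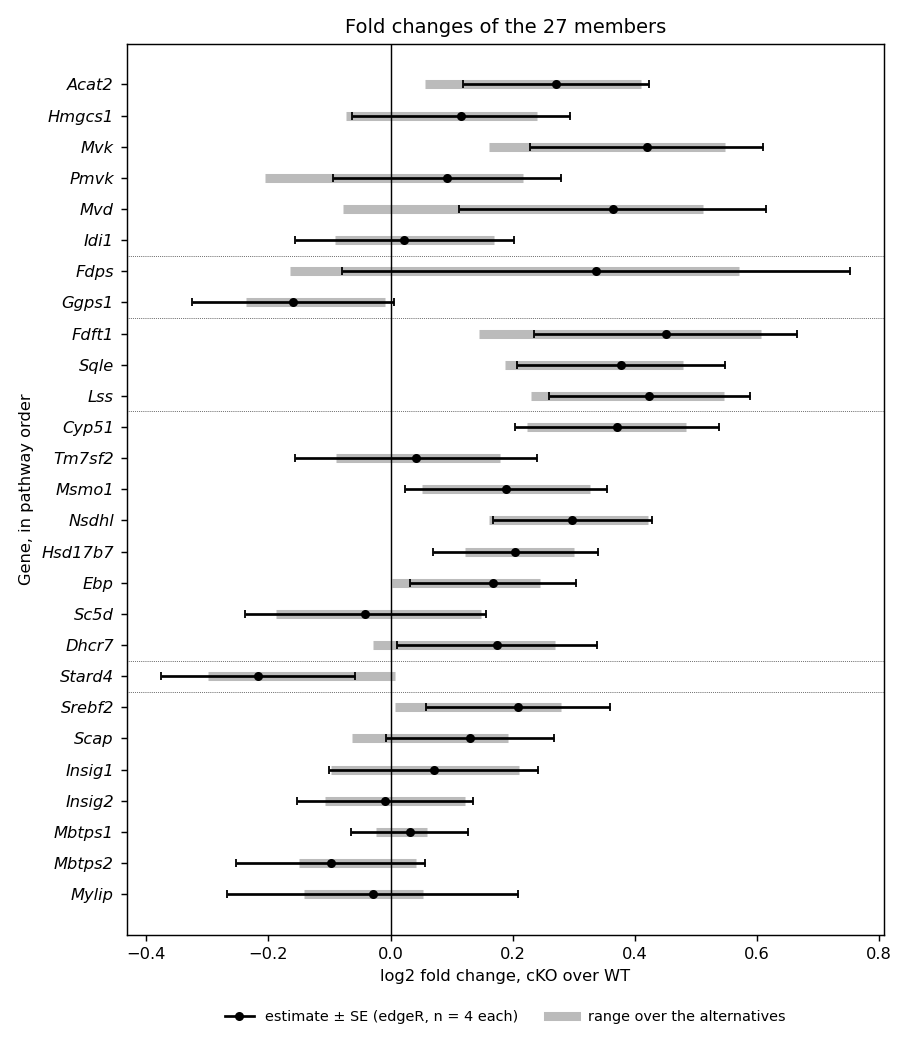
Log2 fold change, cKO over WT, of the 27 genes in pathway order, with points and bars for the edgeR estimate and SE (4 libraries each) and grey bands for the range over the 19 alternatives. The bands of Acat2, Mvk, Fdft1, Sqle, Lss, Cyp51, Msmo1, Nsdhl, Hsd17b7 and Ebp lie to the right of 0, and the control genes other than Srebf2 have bands that cross 0.

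The genes that control SREBP2 differed less between genotypes, with 4 of 7 higher, a median log2 fold change of 0.031 and 0 past the test. Whether this differs from the enzymes was not tested. Srebf2 (ENSMUSG00000022463, chr15:82147181-82205379) had 239, 234, 365 and 237 CPM in cKO libraries 1 to 4, against 224, 234, 224 and 248.8 CPM in WT libraries 1 to 4. The cKO libraries 1, 2 and 4 lay within the WT range and cKO library 3 stood alone above it, so that the estimate of 0.21 ± 0.15 (log2, SE; edgeR adjusted p = 0.921) was 0.026 without that library. Scap had 57.7, 61.4, 87.4 and 59.2 CPM in cKO libraries 1 to 4, against 64.2, 60.3, 56.5 and 61.9 CPM in WT libraries 1 to 4. It showed the same single high library, and its estimate of 0.13 ± 0.14 was -0.030 without it. In cKO library 3, Srebf2 and Scap were 0.56 and 0.47 above their means (log2). The trend on length and GC took 0.22 and 0.18 of this, and with that trend removed the estimates were 0.094 and 0.040. Of the exon bases of Scap 13.2% are shared with another annotated gene on the opposite strand.

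Insig1, itself a target of SREBP2, had 60.2, 50.2, 50.6 and 36.8 CPM in cKO libraries 1 to 4, against 38.2, 60.1, 44.9 and 45.1 CPM in WT libraries 1 to 4. As in most enzymes, the lowest cKO value was in library 4, the lowest WT value in library 1 and the highest WT value in library 2, while the group means of 49.4 ± 9.64 CPM in cKO and 47.1 ± 9.26 CPM in WT (SD, n = 4 each) were close, with an estimate of 0.071 ± 0.17 (log2, SE). Insig2, the isoform not driven by SREBP2 in liver, had 33.3, 29.1, 24.0 and 27.1 CPM in cKO libraries 1 to 4, against 30.0, 29.7, 31.9 and 22.4 CPM in WT libraries 1 to 4. Its estimate was -0.0091 ± 0.14, and 0.064 without cKO library 3.

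Mbtps1, the first protease, was the steadiest of the 27 by error, with 158, 163, 186 and 164 CPM in cKO libraries 1 to 4, against 171, 162, 164 and 160 CPM in WT libraries 1 to 4. The estimate was 0.031 ± 0.096 (log2, SE), and -0.022 without cKO library 3. Mbtps2, the second protease, had 25.4, 25.05, 16.8 and 25.9 CPM in cKO libraries 1 to 4, against 23.2, 29.0, 24.2 and 23.4 CPM in WT libraries 1 to 4, with the low value again in cKO library 3 and an estimate of -0.098 ± 0.15, which was 0.030 without it. Of its exon bases 28.4% are shared with Yy2 on the same strand. Mylip, a ubiquitin ligase that lowers lipoprotein receptors, had 3.20, 2.30, 2.70 and 2.25 CPM in cKO libraries 1 to 4, against 2.01, 2.71, 2.84 and 3.12 CPM in WT libraries 1 to 4, an estimate of -0.030 ± 0.24 at 35 to 54 counts per library, and -0.044 without cKO library 3.

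Stard4 had 219, 231, 154 and 178 CPM in cKO libraries 1 to 4, against 201, 224, 284 and 199.7 CPM in WT libraries 1 to 4. It did not follow the enzymes by library: its lowest value was in cKO library 3 and its highest in WT library 3. The estimate of -0.22 ± 0.16 (log2, SE; edgeR adjusted p = 0.921) was -0.12 without cKO library 3 and 0.0073 when both libraries numbered 3 were left out.

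In 7 of the 8 libraries most enzymes lay on the same side of their mean, and this side differed between libraries of 1 genotype. The exception was cKO library 2, where they were split evenly. In cKO library 1, 19 of 19 enzymes lay above their 8-library mean, with a median deviation of 0.34 (log2), and in cKO library 3, 14 did, with a median of 0.38. In cKO libraries 2 and 4 the counts were 9 and 3 of 19, with medians of -0.010 and -0.16. Libraries 1 to 4 of WT had 2, 16, 5 and 6 enzymes above their mean, with medians of -0.30, 0.099, -0.070 and -0.043. The share of all genes above their mean was 50.8% to 53.6% in every library. The enzymes thus divided within each genotype, and cKO libraries 2 and 4 lay inside the range of the WT libraries.

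The size of the difference within 1 genotype depended on the pair of libraries, and the pairs named here were chosen after their values were seen. All 19 enzymes were higher in cKO library 1 than in cKO library 4, by a median of 1.46-fold, against 50.8% of all genes. Likewise all 19 were higher in WT library 2 than in WT library 1, by a median of 1.39-fold, against 50.3% of all genes. Other pairs were closer, with a median ratio of 1.05 for cKO library 3 over cKO library 1 (10 of 19 enzymes higher) and 1.06 for WT library 2 over WT library 4 (19 of 19 higher). One of cKO libraries 1 and 3 was the highest of the 8 libraries for 16 of 19 enzymes, where of all genes cKO library 1 was the highest for 11.03% and cKO library 3 for 25.8%. The lowest was WT library 1 for 11 enzymes and for 7.06% of all genes.

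Removing the trend on length and GC content again left most enzymes above their mean in cKO libraries 1 and 3 and WT library 2. With the trend removed from each library, 19, 7, 15 and 2 enzymes were above their mean in cKO libraries 1 to 4 and 2, 16, 4 and 3 in WT libraries 1 to 4. Some log2 fold changes fell, such as Mvk from 0.42 to 0.27, Mvd from 0.36 to 0.20 and Fdft1 from 0.45 to 0.36. Others rose, such as Msmo1 from 0.19 to 0.33, Nsdhl from 0.30 to 0.42 and Hmgcs1 from 0.12 to 0.21. The median deviation in cKO library 3 was then 0.37, and the median log2 fold change of the 27 genes was 0.17, as without the correction. With cKO library 3 left out that median was 0.070, without cKO library 1 it was 0.060, and without cKO libraries 2 or 4 it was 0.21 and 0.25. With limma's sample quality weights it was 0.0028, with 14 of 27 genes higher. The lowest weights were those of cKO library 3 (0.192), WT library 3 (0.452) and cKO library 1 (0.607). The 4 libraries with the highest weights were WT library 2 (2.42), WT library 1 (2.14), cKO library 4 (2.06) and cKO library 2 (1.46).

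Cell type markers also varied by library. Markers of T cells and intraepithelial lymphocytes had median deviations of 0.63, -0.46, 1.15 and -0.44 in cKO libraries 1 to 4 and -0.65, -0.95, 0.044 and 0.80 in WT libraries 1 to 4. In cKO they were high in libraries 1 and 3, as the enzymes were, while in WT they were highest in library 4 and lowest in library 2, where the enzymes were highest. Enterocyte markers had 0.31, -0.24, 0.048 and -0.15 in cKO libraries 1 to 4 and -0.40, -0.15, 0.82 and -0.29 in WT libraries 1 to 4. Markers of dividing cells had -0.17, 0.16, 0.054 and 0.16 in cKO libraries 1 to 4 and 0.074, 0.014, -0.32 and 0.11 in WT libraries 1 to 4. The 7 macrophage and dendritic markers were low, with sums of 8.54 to 19.3 CPM in cKO and 5.36 to 11.9 CPM in WT, and 4 were tested. All 4 had higher point estimates in cKO, with 0 past the test. Their median deviations were 0.38, -0.13, 0.86 and -0.18 in cKO libraries 1 to 4 and -0.30, -0.91, 0.091 and -0.11 in WT libraries 1 to 4, likewise high in cKO libraries 1 and 3. The median deviations of enteroendocrine markers separated by genotype, with 0.25, 0.37, 0.14 and 0.16 in cKO libraries 1 to 4 and -0.00059, -0.26, -0.23 and -0.024 in WT libraries 1 to 4. Their summed CPM overlapped, at 576.2 to 679.9 in cKO and 427.5 to 577 in WT. Of the enteroendocrine markers 6 of 7 had higher point estimates in cKO, and 0 passed the test. At an edgeR p under 0.05 before adjustment 4 of 7 were higher, against 1.83% of all genes. Point estimates were lower for 3 of 6 Paneth, 5 of 6 tuft and 4 of 7 goblet markers. Of these, 2 Paneth, 1 tuft and 1 goblet marker were lower at an edgeR p under 0.05 before adjustment, against 2.07% of all genes, and 0 passed the test. The part of cell makeup in the enzyme levels was not tested, and in bulk RNA fewer cells of a type and less RNA per cell cannot be told apart.

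**Figure D5:**
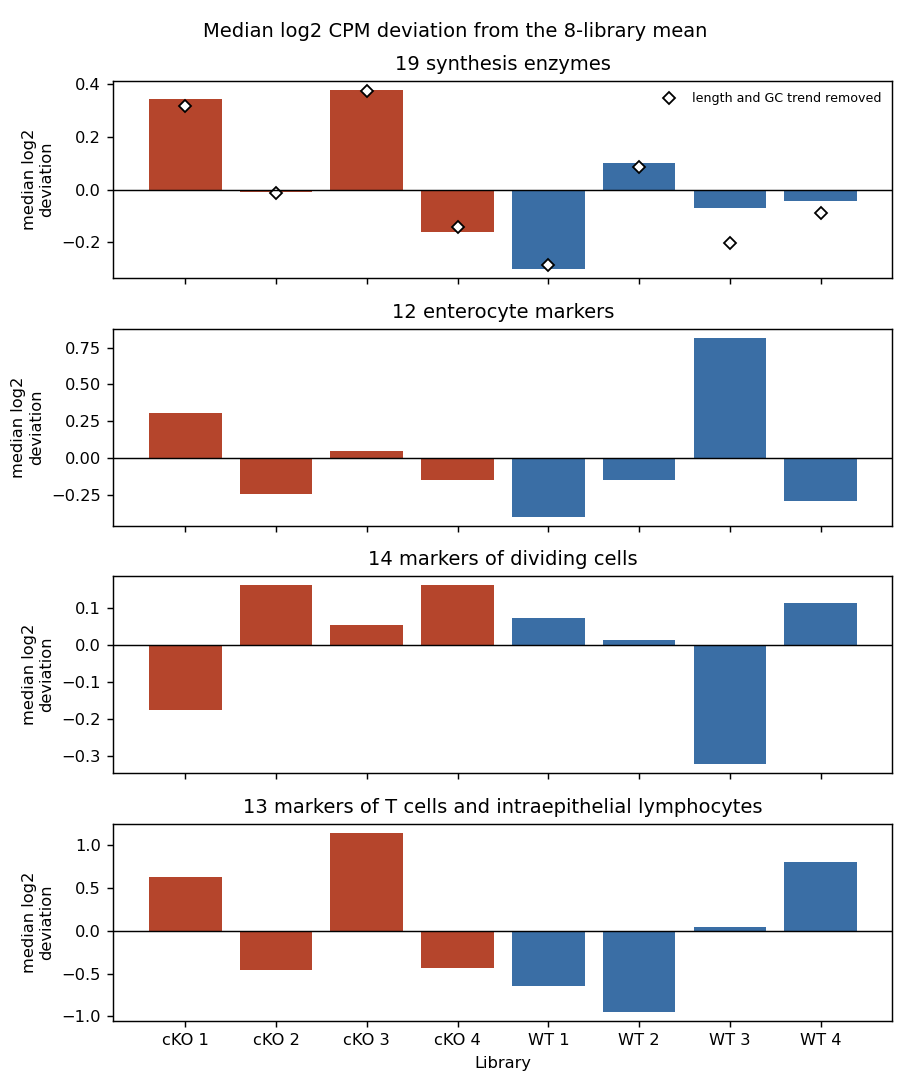
Median log2 CPM deviation from the 8-library mean in each library, cKO left and WT right, for the 19 enzymes (diamonds: with the length and GC trend removed) and for markers of enterocytes, dividing cells, and T cells with intraepithelial lymphocytes. Enzymes are high in cKO libraries 1 and 3, at 0.34 and 0.38, and low in WT library 1, at -0.30, and the vertical scales differ between panels.

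Promoter windows of RefSeq, on GRCm38.p6 and reaching from 250 bases before to 50 bases after a transcript start, were matched by symbol for 23 of the 27 genes. They are described because SREBP2 is a known factor of most of the enzymes. Whether it had a part in the variation among libraries was not tested. SREBP2 binds sterol regulatory elements together with NF-Y, which binds CCAAT boxes, and Sp1, which binds GC boxes. Genes with several windows were counted once, if any window held a match on either strand. CCAAT was found for 19 of the 23 (82.6%) and for 15 of 16 enzymes, against 42.7% of the 10226 tested genes with a window and 41.1% of all 27025 genes with one. The GC box GGGCGG was found for 20 of 23 (87.0%), against 66.8% of tested genes. The sterol regulatory element TCACNCCAC, where N is any base, was found for 1 of 23, Hmgcs1, against 1.38% of tested genes, and with at most 1 letter different for 11 of 23 (47.8%), against 29.1% of tested genes. That looser search was added after the strict one was seen. The shares are descriptions, and a match is not a bound site. The windows of Hmgcs1 (chr13:119690101-119690400, plus strand), Lss (chr10:76531355-76531654, plus strand), Nsdhl (chrX:72918271-72918570, plus strand), Cyp51 (chr5:4104648-4104947, minus strand) and Mvk (chr5:114444019-114444318, plus strand) are shown, the first for its sterol regulatory element and the others, chosen after their values were seen, for the CCAAT boxes of the 4 enzymes with the smallest p among those with a window. Capitals mark the sterol regulatory element and the CCAAT boxes, which read ATTGG where they lie on the other strand, and in these windows no CCAAT box overlaps the element.
Hmgcs1: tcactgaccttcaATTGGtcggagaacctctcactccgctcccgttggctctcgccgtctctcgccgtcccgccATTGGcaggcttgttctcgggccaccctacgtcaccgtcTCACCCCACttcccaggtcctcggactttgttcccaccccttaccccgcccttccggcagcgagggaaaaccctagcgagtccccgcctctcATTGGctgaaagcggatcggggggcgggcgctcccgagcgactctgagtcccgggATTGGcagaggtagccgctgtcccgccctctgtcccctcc
Lss: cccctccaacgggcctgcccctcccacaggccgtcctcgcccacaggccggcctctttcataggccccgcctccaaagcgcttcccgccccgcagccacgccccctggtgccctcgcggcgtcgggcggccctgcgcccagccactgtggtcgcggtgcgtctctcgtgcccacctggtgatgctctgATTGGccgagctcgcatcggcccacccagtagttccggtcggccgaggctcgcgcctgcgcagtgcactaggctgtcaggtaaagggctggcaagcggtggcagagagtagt
Nsdhl: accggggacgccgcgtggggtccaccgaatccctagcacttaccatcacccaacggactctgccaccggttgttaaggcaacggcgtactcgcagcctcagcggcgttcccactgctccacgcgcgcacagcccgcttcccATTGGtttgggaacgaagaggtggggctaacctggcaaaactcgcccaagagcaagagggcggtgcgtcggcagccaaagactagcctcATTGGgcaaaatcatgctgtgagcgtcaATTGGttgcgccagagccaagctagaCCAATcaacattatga
Cyp51: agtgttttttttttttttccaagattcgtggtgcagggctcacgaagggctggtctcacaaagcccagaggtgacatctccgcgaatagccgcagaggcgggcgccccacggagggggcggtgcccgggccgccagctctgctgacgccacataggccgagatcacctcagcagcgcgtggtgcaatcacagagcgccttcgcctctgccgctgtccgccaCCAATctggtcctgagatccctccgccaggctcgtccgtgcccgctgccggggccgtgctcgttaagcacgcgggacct
Mvk: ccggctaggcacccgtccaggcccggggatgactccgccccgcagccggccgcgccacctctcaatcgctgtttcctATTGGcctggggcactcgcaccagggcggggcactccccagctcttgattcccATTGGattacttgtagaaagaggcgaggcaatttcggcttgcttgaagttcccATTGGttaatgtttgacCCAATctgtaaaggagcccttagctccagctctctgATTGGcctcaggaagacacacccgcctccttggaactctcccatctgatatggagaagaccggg
The element of Hmgcs1 starts 137 bases before the transcript start, among 4 CCAAT boxes and 3 GC boxes. Lss and Cyp51 have 1 CCAAT box each, starting 62 and 29 bases before the start, Nsdhl has 4 and Mvk has 5.

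Genes next to the pathway were taken in 5 further lists, of which 0 genes passed the test, with 1 higher and 1 lower at an edgeR p under 0.05 before adjustment and shares of all genes as above. Of 17 genes that use prenyl diphosphates 8 were higher and 9 lower in cKO, with a median log2 fold change of -0.00017, and those with the smallest p were Pdss2, of ubiquinone synthesis, at -0.20 ± 0.11, and Pggt1b, a subunit of a prenyltransferase, at -0.22 ± 0.16 (SE), or -0.069 without cKO library 3. Of 14 genes of sterol-linked protein degradation 11 were higher, with a median of 0.094. Among them Rnf139, a ubiquitin ligase of the endoplasmic reticulum, went the other way, with 29.3, 26.9, 20.9 and 30.0 CPM in cKO libraries 1 to 4, against 32.0, 32.9, 35.2 and 31.0 CPM in WT libraries 1 to 4. Its cKO libraries all lay below its WT libraries, at an estimate of -0.29 ± 0.13 (log2, SE; edgeR adjusted p = 0.921, and 0.0453 before adjustment). Without cKO library 3 it was -0.19. Tmub1 was at 0.25 ± 0.14, and at 0.10 without cKO library 3, where it had 31.7 CPM against 21.8 to 22.6 CPM in the other cKO libraries.

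Of 11 nuclear partners of SREBP2 8 were lower, with a median of -0.087, and Creb1 (-0.21 ± 0.17) and Sp3 (-0.22 ± 0.19) were low in cKO library 3 alone, at 44.6 and 53.1 CPM, against at least 73.5 and 97.4 CPM in the other cKO libraries. Without cKO library 3 their estimates were -0.049 and -0.036. Of 22 genes of cholesterol esters, storage and transport 14 were higher, with a median of 0.040. Scarb1, a lipoprotein receptor, had the smallest p of that list, with 4.62 to 10.7 CPM in cKO and 4.33 to 6.11 CPM in WT, an estimate of 0.57 ± 0.26 (log2, SE; edgeR adjusted p = 0.921), followed by Osbpl9 at -0.20 ± 0.13, or -0.11 without cKO library 3. Of 14 tested genes of fatty acid synthesis and SREBP1 8 were higher, with a median of 0.051. There Mlxipl, the carbohydrate-responsive factor ChREBP, had 318, 353, 324 and 383 CPM in cKO libraries 1 to 4, against 245, 259.7, 303 and 275 CPM in WT libraries 1 to 4, all cKO libraries above all WT libraries (log2 fold change 0.35 ± 0.11, SE; edgeR adjusted p = 0.921, and 0.00950 before adjustment), and Elovl6, a fatty acid elongase, was at -0.34 ± 0.16.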

How the data were processed

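For 54139 genes the authors deposited raw read counts and FPKM (fragments per gene length and library total), with the gene length in bases. Per the deposited design text, mRNA was sequenced on an Illumina NovaSeq and passed through Hisat2 and Stringtie. Their versions, the genome build, the counting program and the strand setting were not given in the sources used here. Other genes of the pathway are not analysed here. Of the identifiers 97.1% of those found in GENCODE M21 (GRCm38) have the same coordinates there.

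Counts were tested with edgeR 4.0.16 (R 4.3.3; quasi-likelihood F-test, robust fit, TMM factors, default low-count filter, 14701 genes kept) with genotype alone in the model. P-values were adjusted by Benjamini and Hochberg across the whole table, and 0.05 was the threshold. The SE is the log2 fold change over the square root of F, with a median of 0.173 over genes. Fold changes are cKO over WT. CPM deviations are log2 with a prior count of 2. Single genes were also compared by an exact permutation test on log2 CPM (scipy 1.17.1). Near-identical copies were sought with blastn 2.17.0 among GENCODE M21 transcripts (matches of at least 100 bases). The edgeR step was tested on simulated data. All pairs of libraries differed by more than sampling noise (chi-square per degree of freedom of at least 10.75).

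The members, lists and tests were chosen with earlier results of these data known, so no p is adjusted over a list. CPM in every library is given for the 8 genes with the smallest p, the 3 with the highest mean FPKM, the control genes and Stard4, and of each other list the 2 genes with the smallest p are named. The 19 alternatives were median-ratio factors, 2 other filters, leaving out each library or both libraries 3, the replicate number as a block, limma 3.58.1 voom with sample quality weights, DESeq2 1.42.0, offsets that remove a spline trend on length and GC (GC known for 98.3% of tested genes), and limma on log2(FPKM + 1) or log2(FPKM + 0.1), the second also for genes of mean FPKM 0.5 or more.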

Additional observations from a re-analysis of the deposited data

Results flagged for a closer look

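In 5 of 54 groups of 4 libraries, 1 library stood far off, by the gap to its nearest neighbour over the range of the group. About 1 in 20 would be set apart by chance in independent, normally distributed groups. The groups here share the same 8 libraries and are not independent, so the count cannot be compared with that rate. Srebf2 in cKO library 3, at 365 CPM, was the farthest, above 234 to 239 CPM in the other cKO libraries. Scap in cKO library 3 was likewise high, at 87.4 CPM against 57.7 to 61.4 CPM. Mbtps2 in cKO library 3 was low, at 16.8 CPM against 25.05 to 25.9 CPM. Mbtps2 in WT library 2 was high, at 29.0 CPM against 23.2 to 24.2 CPM. Msmo1 in WT library 1 was low, at 41.3 CPM against 60.2 to 63.8 CPM in the other WT libraries.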

How the results depend on the processing

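None of the 27 genes passed the adjusted threshold in any of the 19 alternatives, and at p under 0.05 before adjustment from 0 to 8 were higher and 0 lower. The number of genes of the whole table past the threshold, 2 in edgeR, was 10 without a filter, 4 without both libraries 3, 8 with sample quality weights, 41 by DESeq2, 1 on log2(FPKM + 0.1) and 0 on log2(FPKM + 1) or with a mean FPKM minimum of 0.5 (616 and 571 before adjustment), and from 0 to 3 without 1 library. The replicate number as a block gave 0 calls (554 before adjustment) and a median over the 27 genes of 0.14, with 21 higher. Under it 0 of the 27 genes were past 0.05 before adjustment, against 4 without it. The labels do not say what the numbers share, and they were not taken as pairs because the deviations of same-numbered libraries correlated at -0.108, 0.108, 0.152 and 0.138. Of the cKO libraries, 3 and 4 correlated best with their own number in WT, and 1 and 2 did not. The count of higher genes ran from 16 to 24 and the median from 0.060 to 0.25 without 1 library. Estimates changed sign, as log2 fold changes, without both libraries 3 (Pmvk -0.12, Sc5d 0.15, Dhcr7 -0.029, Stard4 0.0073, Scap -0.063, Insig2 0.12, Mbtps1 -0.024, Mbtps2 0.016), with sample quality weights (Pmvk -0.21, Mvd -0.077, Fdps -0.0072, Tm7sf2 -0.063, Sc5d 0.054, Dhcr7 -0.018, Scap -0.019, Insig1 -0.097, Mbtps1 -0.0093) and with the length and GC trend removed (Pmvk -0.0099, Tm7sf2 -0.053, Sc5d 0.067, Insig2 0.031, Mbtps2 0.042). Without 1 library they ran across 0 for Hmgcs1 -0.073 to 0.22, Idi1 -0.090 to 0.17, Fdps -0.16 to 0.57, Tm7sf2 -0.090 to 0.18, Insig1 -0.038 to 0.21, Sc5d -0.19 to 0.11, Mylip -0.14 to 0.053, Pmvk -0.028 to 0.22, Dhcr7 -0.028 to 0.27, Scap -0.030 to 0.19, Insig2 -0.11 to 0.064, Mbtps1 -0.022 to 0.060, Mbtps2 -0.15 to 0.030. The cause was not tested. Fdps gave no value with a mean FPKM minimum of 0.5. With 4 libraries a group, differences near the median SE of 0.173 cannot be resolved. Larger estimates, such as 0.45 ± 0.22 for Fdft1 (log2, SE), did not pass the adjusted threshold either.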

Other observations

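The deviations of cKO library 3 differed with base composition. Mvd and Mvk, at 59.2% and 58.8% GC, were 0.83 and 0.65 above their means there (log2), of which the trend on length and GC took 0.27 and 0.28. Idi1 and Mbtps2, at 40.6% and 44.3% GC, were at -0.52 and -0.50, of which the trend took -0.51 and -0.42. Nsdhl and Sqle, at 45.4% and 48.5% GC, were 0.40 and 0.50 above their means against trends of -0.29 and -0.10, so that 0.68 and 0.60 were left after the trend. In cKO library 1 the trend of the 27 genes ran only from -0.070 to 0.084.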
